A study of Mus musculus with 10 samples.

Results

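The cytosolic chaperone system of heart muscle cells was examined through 42 genes: members of the HSP70 and HSP90 families, small heat shock proteins, J-proteins, co-chaperones, heat shock factors and the 8 subunits of the chaperonin CCT. They were 42 of the 23337 genes in a table that compares cardiomyocytes given dnMKL1 with cardiomyocytes given GFP alone. The list was drawn up by gene family after Hspa1a and Hspa1b had been seen to rise in this same comparison. All values of the comparison given for the 42 genes are therefore a description, and the calls among them are no independent evidence of a chaperone response.

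The mice were of wildtype genotype and received virus on postnatal day 1 at 5e+08 viral genomes per gram. The GFP group (5 libraries) received AAV9-cTNT-GFP, and the dnMKL1 group (5 libraries) received AAV9-cTNT-dnMKL1-GFP, so that both groups carried the vector, its promoter and GFP. The cTNT promoter is that of cardiac troponin T and is active in cardiomyocytes. dnMKL1 is a dominant-negative form of MKL1 (also called MRTF-A), a coactivator of serum response factor that monomeric actin keeps in the cytoplasm. Cells were taken on postnatal day 14 by perfusing the heart with collagenase and sorting by fluorescence, and polyadenylated RNA was sequenced. The series' design text calls the 5 libraries of each group biological replicates.

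Chaperones of the cytosol hold newly made or damaged proteins in a foldable state. HSP70 proteins bind exposed stretches of a client and release them through cycles of ATP hydrolysis that J-proteins start and nucleotide exchange factors end. HSP90 takes over partly folded clients such as kinases and steroid receptors, small heat shock proteins hold clients without ATP, and the ring-shaped CCT folds actin and tubulin. Heat shock factor 1, encoded by Hsf1, binds heat shock elements, which are repeats of the unit GAA in alternating orientation, and raises the inducible members under proteotoxic stress. In the beating heart, small heat shock proteins are abundant and act largely on the sarcomere and on desmin filaments.

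The table gives 1 fold change per gene and no value per library. Group means were therefore computed from the base mean (the average over all libraries in normalized counts) and the fold change, and they carry no SD. They are called implied means here. The spread between libraries enters through the standard error (SE) of each fold change, from which the 95% intervals were computed. A gene is called higher or lower where its Benjamini-Hochberg adjusted Wald p-value in the authors' deposited table is under 0.05. The intervals are per gene and not adjusted for the number of genes. Mkl1, whose sequence the dnMKL1 vector carries in altered form, had implied means of 83.9 normalized counts with GFP and 74899 with dnMKL1. The direction of every fold change rests on that reading, since the headers do not state it.

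Of the 42 genes, 9 were called higher and 14 lower in dnMKL1 libraries, against 16.6% higher and 17.4% lower among the 14056 tested genes. All 42 had an adjusted p-value, and their base means ran from 68.9 (Hsf2) to 20405 (Hspb7) normalized counts. The median log2 fold change of the 42 genes was -0.07, and that of all tested genes was 0.02. Without Hspa1a and Hspa1b the other 40 genes had 7 higher, 14 lower and a median of -0.08. The list thus moved in both directions, with the largest values in HSP70, in the J-proteins and in the inducible HSP90 gene.

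**Figure D1:**
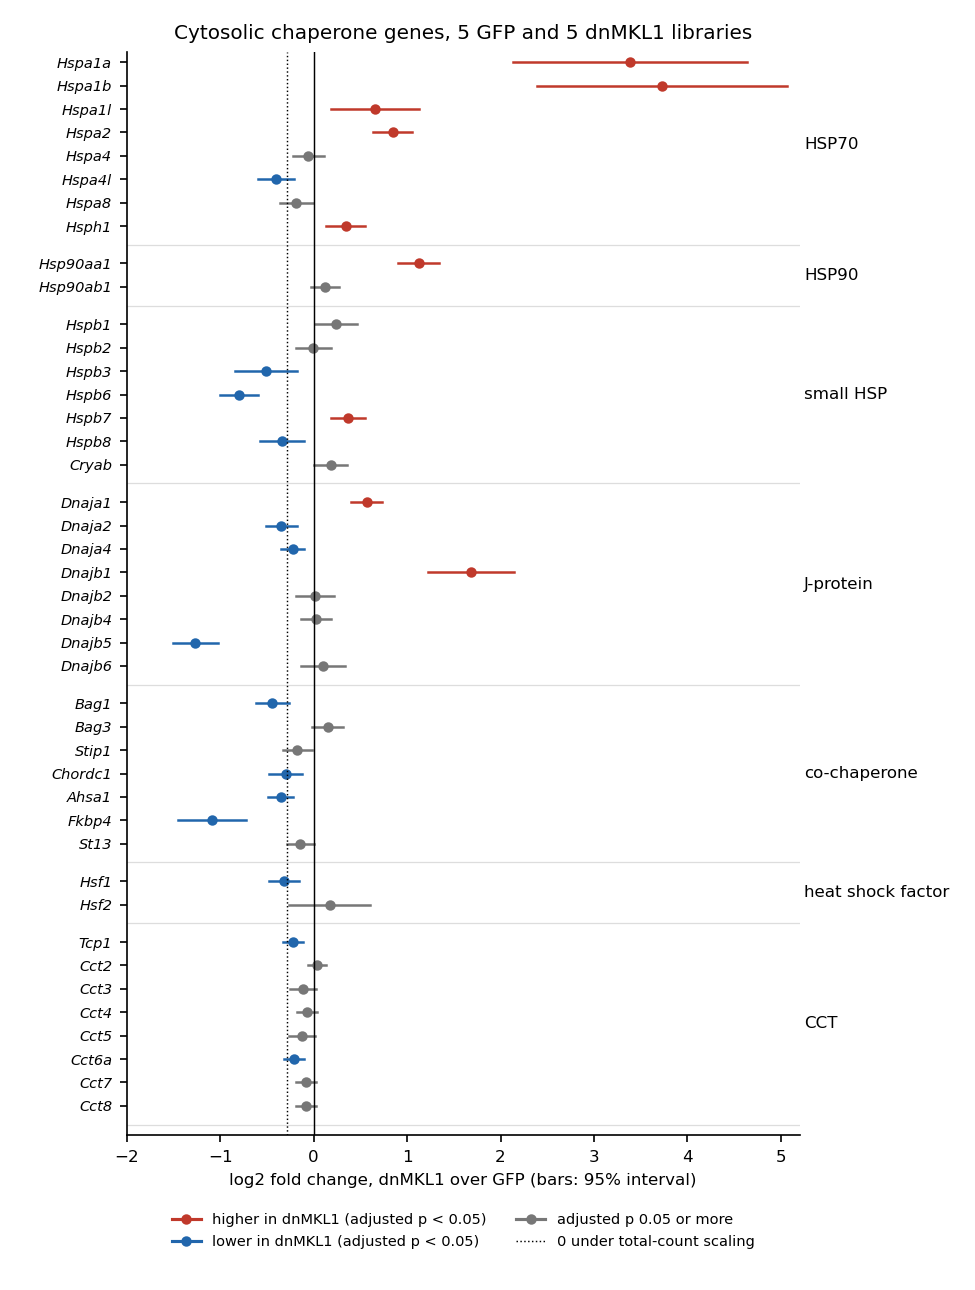
Log2 fold change of each of the 42 genes, dnMKL1 over GFP, with 95% intervals from the deposited SE, grouped by family and coloured by call. The intervals of Hspa1a and Hspa1b are the widest and lie farthest to the right, while those of the CCT subunits lie close to 0 (solid line) and most of them to the right of the dotted line that marks 0 after scaling both groups to the same total.

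The directions depended on how the groups were scaled. Summed over all genes, the implied means came to 13330302 with GFP and 10915829 with dnMKL1, and scaling both to the same total adds 0.29 to every log2 fold change, a factor of 1.22. Under that scaling 24 of the 42 genes were higher and 3 lower, against 40.4% higher and 6.6% lower among all tested genes. All 9 genes called higher stayed higher. Of the 14 called lower, 3 stayed lower: Hspb6, Dnajb5 and Fkbp4. Totals weigh the most abundant genes most. In the authors' scaling the 140 genes with base means of 10000 or more had a median log2 fold change of -0.60. That of all tested genes was 0.02. Directions below are those of the authors' scaling.

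The HSP70 family held the genes that led to the list. Hspa1a and Hspa1b encode the stress-inducible HSP70, which is scarce in unstressed cells. Hspa1a had implied means of 50.3 normalized counts with GFP and 525 with dnMKL1, a 10.4-fold difference (95% interval 4.38 to 24.8). Hspa1b had implied means of 51.1 and 679 normalized counts, a 13.3-fold difference (95% interval 5.26 to 33.6). Both intervals are wide. The authors' deposited table gave SEs of 0.64 for Hspa1a and 0.68 for Hspa1b on the log2 scale, where the median SE of the 6515 genes with base means from 100 to 1000 was 0.12 and the 95th percentile was 0.28. Of the 42 genes, these were the 2 whose SE lay above the 95th percentile of genes in their range of base means.

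Hspa1a and Hspa1b cannot be treated as separate measurements. They lie near each other on the minus strand of chromosome 17, Hspa1b at chr17:34956436-34959238 and Hspa1a at chr17:34969190-34972156 (GRCm38, GENCODE M21). Their coding sequences were identical at 1915 of 1926 aligned positions (99.4%), with an unbroken identical run of 638 bases. The other relatives were less alike, with coding identities to Hspa1a of 82.9% for Hspa1l, 78.2% for Hspa2 and 74.1% for Hspa8. Their longest identical runs with Hspa1a were 233 bases for Hspa1l, 32 for Hspa2 and 22 for Hspa8. How the authors' counting placed reads that match several of these genes is not given in the sources used here. The split between Hspa1a and Hspa1b and their summed level are therefore uncertain.

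The promoters of the pair were nearly identical as well, with 296 of 300 bases shared from 250 before to 50 after the start site. The 100 bases that end 61 bases before each start site are shown for the pair because they hold a heat shock element in both copies. They are also shown for 3 other genes with the same element in the same stretch that did not move with the pair or moved less. Hspb6, Dnaja4 and Dnajb6 also held the element in this stretch of a window and are not shown. Capitals mark GAANNTTC, a pair of heat shock element units facing each other, which reads the same on both strands. Sequences are from RefSeq on GRCm38.p6, written 5′ to 3′ along the gene's own strand.
Hspa1a (chr17:34972217-34972316, minus strand): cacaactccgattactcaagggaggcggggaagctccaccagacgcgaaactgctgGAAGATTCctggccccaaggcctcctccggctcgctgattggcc
Hspa1b (chr17:34959299-34959398, minus strand): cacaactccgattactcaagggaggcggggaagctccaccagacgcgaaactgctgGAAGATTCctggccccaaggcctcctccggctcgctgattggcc
Hspb1 (chr5:135887759-135887858, plus strand): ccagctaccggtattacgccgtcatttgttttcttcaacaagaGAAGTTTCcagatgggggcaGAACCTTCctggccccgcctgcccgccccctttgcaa
Dnaja1 (chr4:40722308-40722407, plus strand): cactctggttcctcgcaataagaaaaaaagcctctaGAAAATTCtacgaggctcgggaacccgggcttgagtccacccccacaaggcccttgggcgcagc
Fkbp4 (chr6:128438717-128438816, minus strand): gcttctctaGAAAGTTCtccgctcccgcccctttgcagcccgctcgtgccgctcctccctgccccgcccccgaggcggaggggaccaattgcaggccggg

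The other HSP70 genes moved far less. Hspa8 encodes HSC70, the constitutive form that carries most HSP70 work in unstressed cells. Its implied means were 8555 normalized counts with GFP and 7522 with dnMKL1, 0.879 times the GFP level (95% interval 0.778 to 0.994), and it was not called. Hspa2 and Hspa1l, relatives best known from the male germ line, were called higher at lower levels. Hspa2 went from an implied mean of 153 to 275 normalized counts, 1.80-fold (95% interval 1.55 to 2.08), and Hspa1l from 89.7 to 142, 1.58-fold (95% interval 1.14 to 2.19). An antisense gene, Gm10501, covers 71.9% of the exon bases of Hspa1l in GENCODE M21, and whether counting used strand is not given in the sources used here. Exons of Gm20481 on the opposite strand likewise cover 19.0% of those of Hspa1a. Hspa1l also shares an identical run of 233 coding bases with Hspa1a, so part of its counts may come from reads of Hspa1a.

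The 3 HSP110 proteins are relatives of HSP70 that serve as its nucleotide exchange factors, and their genes split. Hsph1, the heat-inducible one, was called higher, with implied means of 583 and 739 normalized counts, 1.27-fold (95% interval 1.09 to 1.47). Hspa4l was called lower, from 1187 to 897 normalized counts, 0.755 times the GFP level (95% interval 0.662 to 0.862). Hspa4 was not called, at 0.961 times the GFP level (95% interval 0.856 to 1.08).

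The summed HSP70 counts were alike in the groups, with a different makeup. The implied means of the 8 family members summed to 13465 normalized counts in each group. Of that sum Hspa1a and Hspa1b together made up 0.753% with GFP and 8.94% with dnMKL1, whereas Hspa8 made up 63.5% and 55.9%. Per kb of exon the family summed to 2805 and 2993 normalized counts, of which Hspa1a and Hspa1b made up 1.25% and 14.0% and Hspa8 70.9% and 58.4%. No error can be given for these sums and shares, since they combine group means that carry none. They also depend on how reads that match both Hspa1a and Hspa1b were counted, which is not known here. Levels per kb use the union of all annotated exons of a gene, which overstates the length of genes with many isoforms.

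**Figure D2:**
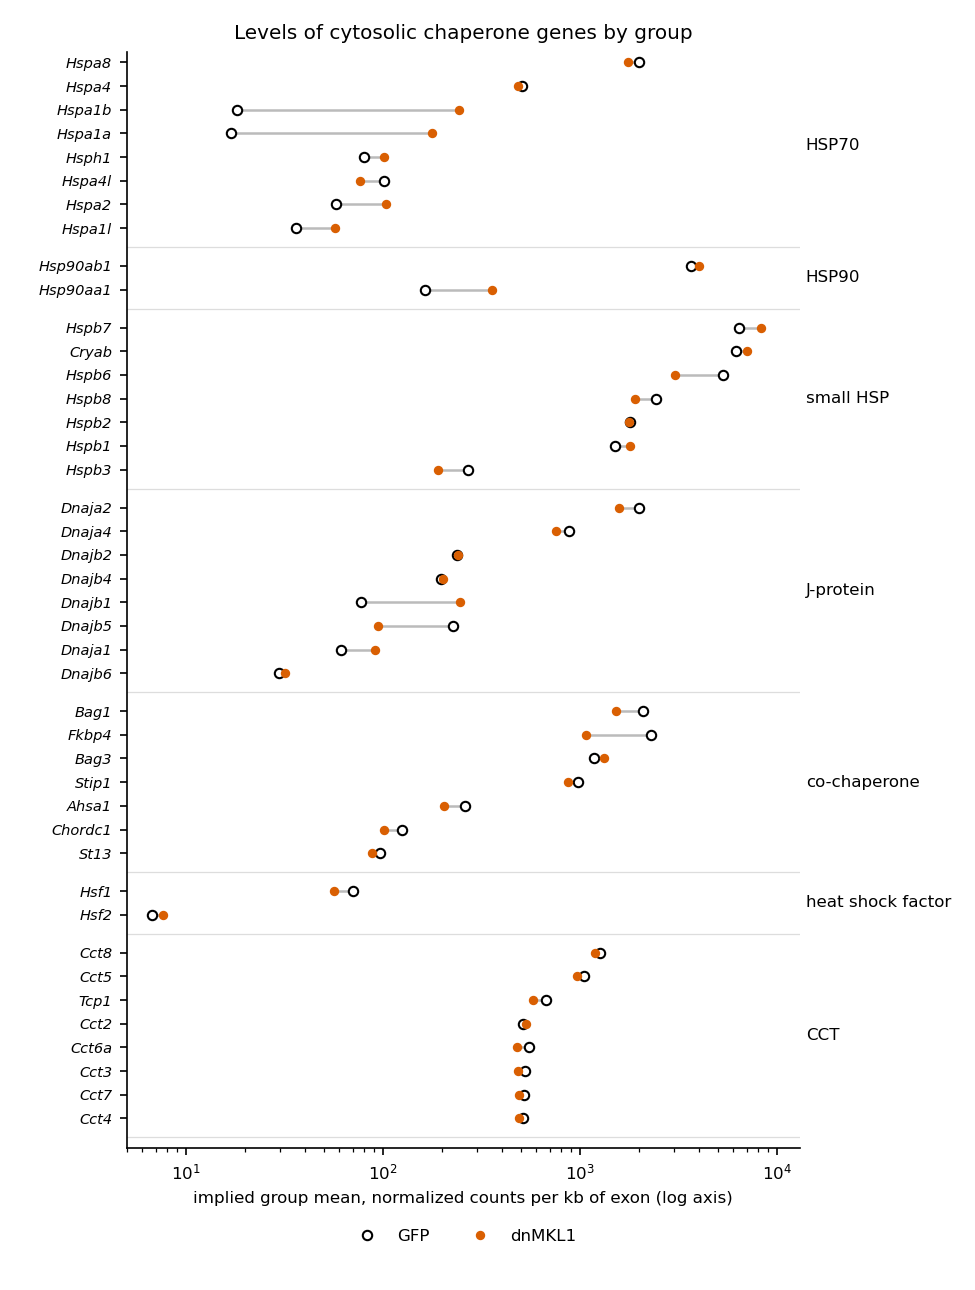
Implied mean of each of the 42 genes per kb of exon on a log axis, with GFP as open circles and dnMKL1 as filled circles, sorted by level within each family. Hspa1a and Hspa1b move from the bottom of their family to positions below Hspa8 and Hspa4, while the abundant genes at the right edge of each family move little, apart from Hspb6, Fkbp4 and Bag1.

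The HSP90 genes listed are an inducible and a constitutive form, which differed in call under the authors' scaling. Under total-count scaling both were higher. Hsp90aa1, the inducible gene, was called higher, with implied means of 641 and 1398 normalized counts, 2.18-fold (95% interval 1.87 to 2.54). Hsp90ab1, the constitutive gene, was not called, with implied means of 10998 and 11977, 1.09-fold (95% interval 0.982 to 1.21). Per kb of exon, Hsp90ab1 stood at 3667 normalized counts and Hsp90aa1 at 163 in the GFP group, and at 3994 and 356 in the dnMKL1 group. The difference between the fold changes of the 2 genes was not tested, as the table gives no covariance between genes.

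Small heat shock proteins were the most abundant family, with 37.1% of the summed implied means of the 42 genes in the GFP group. Hspb7, a cardiac member that binds filamin C, had the highest level per kb of all 42 genes and was called higher, from an implied mean of 17783 to 23027 normalized counts, 1.29-fold (95% interval 1.14 to 1.47). This rise stood against a median log2 fold change of -0.60 over the 140 genes with base means of 10000 or more. Cryab, which encodes αB-crystallin, a chaperone of desmin, had the second highest level per kb and was not called, at 1.14-fold (95% interval 1.00 to 1.29).

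Hspb6, also known as HSP20, was the small heat shock protein gene with the largest change. Its implied mean went from 12193 to 7010 normalized counts, 0.575 times the GFP level (95% interval 0.498 to 0.664), and it stayed lower under total-count scaling. Hspb8, which works with the co-chaperone Bag3 in clearing damaged sarcomere proteins, was called lower at 0.790 times the GFP level (95% interval 0.672 to 0.928), from 4714 to 3723 normalized counts. Hspb3, the least abundant of the 7, was called lower at 0.702 times (95% interval 0.559 to 0.881), from 211 to 148. Neither stayed lower under total-count scaling.

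Hspb1 and Hspb2 were not called. Hspb1, also known as HSP27 in its human form and heat-inducible in many cells, had implied means of 1559 and 1845 normalized counts, 1.18-fold (95% interval 1.01 to 1.38). Its promoter holds 2 of the elements shown above. Hspb2, which forms complexes with Hspb3 in muscle, was at 0.996 times the GFP level (95% interval 0.874 to 1.13). Hspb2 and Cryab are divergent neighbours whose annotated exons overlap by 252 bases on opposite strands, so their counts may share reads. The summed implied means of the family were 47064 and 47591 normalized counts.

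J-proteins bring clients to HSP70 and start its ATP hydrolysis, and their genes moved in both directions. Dnajb1, the heat-inducible HSP40, had implied means of 246 normalized counts with GFP and 791 with dnMKL1, 3.21-fold (95% interval 2.34 to 4.41). It had the third largest rise of the 42 genes, after Hspa1a and Hspa1b. Dnaja1, a class A partner of HSC70, was called higher from 529 to 784 normalized counts, 1.48-fold (95% interval 1.32 to 1.66).

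Dnajb5 had the largest fall of the 42 genes. It encodes a J-protein that takes part in the redox-dependent control of the histone deacetylase HDAC4 in cardiomyocytes. Its implied mean went from 1352 to 562 normalized counts, 0.416 times the GFP level (95% interval 0.351 to 0.492), and it stayed lower under total-count scaling. Dnaja2 was called lower from 5958 to 4689 normalized counts, 0.787 times (95% interval 0.701 to 0.884), and Dnaja4 from 3152 to 2697, 0.856 times (95% interval 0.785 to 0.932). Neither of those stayed lower under total-count scaling, and exons of Wdr61 on the opposite strand cover 44.1% of those of Dnaja4.

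The remaining 3 J-protein genes were not called. Dnajb2, which steers clients to the proteasome, was at 1.01 times the GFP level (95% interval 0.875 to 1.16). Dnajb4 was at 1.02 times (95% interval 0.914 to 1.14). Dnajb6, which suppresses protein aggregation and is mutated in a form of limb-girdle muscular dystrophy, was at 1.07 times (95% interval 0.910 to 1.26).

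Co-chaperones regulate the HSP70 and HSP90 cycles, and of the 7 genes 0 were called higher and 4 lower, with a median log2 fold change of -0.30, against 16.6% higher and 17.4% lower among all tested genes. Under total-count scaling 1 was higher and 1 lower, against 40.4% and 6.6% of all tested genes. The median log2 fold change was then -0.0086, against 0.31 for all tested genes. Fkbp4, which encodes the steroid receptor co-chaperone FKBP52, had the largest change. Its implied mean went from 6375 to 2996 normalized counts, 0.470 times the GFP level (95% interval 0.365 to 0.604), and it was the member of this family that stayed lower under total-count scaling. Its promoter holds the same form of the element as those of Hspa1a and Hspa1b.

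Smaller falls were called for 3 other co-chaperone genes. Bag1, a nucleotide exchange factor of HSP70, went from 2801 to 2062 normalized counts, 0.736 times (95% interval 0.653 to 0.831). Ahsa1, the activator of the HSP90 ATPase, went from 1137 to 889, 0.782 times (95% interval 0.711 to 0.861). Chordc1, another HSP90 partner that heat shock induces, went from 936 to 762, 0.814 times (95% interval 0.721 to 0.920).

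Bag3, Stip1 and St13 were not called. Bag3, a heat shock factor target that guides chaperone-assisted autophagy at the Z-disc, had implied means of 3033 and 3370 normalized counts, 1.11-fold (95% interval 0.990 to 1.25). Stip1, the adaptor that joins HSP70 to HSP90, was at 0.887 times the GFP level (95% interval 0.799 to 0.985), and St13, which stabilises client-bound HSP70, at 0.907 times (95% interval 0.822 to 1.00). The sum of the 7 implied means was 17343 normalized counts with GFP and 12816 with dnMKL1.

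Neither heat shock factor gene was called higher. Hsf1 was called lower, from an implied mean of 500 to 401 normalized counts, 0.801 times the GFP level (95% interval 0.717 to 0.895), and was not called under total-count scaling. Hsf2, the factor active in development, was the least abundant of the 42 genes, with 64.7 and 73.0 normalized counts, and was not called (95% interval of the fold 0.835 to 1.52). Heat shock factor 1 is controlled mainly at the protein level, which these data do not measure.

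The CCT subunits spanned a narrower range of fold changes than any other of the families here. Each ring of CCT holds 8 different subunits, and all 8 genes had fold changes close to 1, from 0.859 (Tcp1) to 1.03 (Cct2) times the GFP level. Tcp1 was called lower, from 3392 to 2915 normalized counts (95% interval of the fold 0.798 to 0.925), and Cct6a from 2004 to 1729, 0.863 times (95% interval 0.800 to 0.931). Both had positive log2 fold changes under total-count scaling, as did the other 6 genes. The median of the CCT genes was then 0.19, against 0.31 for all tested genes.

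The other 6 CCT genes were not called, and their intervals were narrow. The fold was 0.917 for Cct5 (95% interval 0.833 to 1.01), 0.923 for Cct3 (95% interval 0.837 to 1.02) and 0.945 for Cct8 (95% interval 0.880 to 1.01). It was 0.948 for Cct7 (95% interval 0.880 to 1.02), 0.954 for Cct4 (95% interval 0.887 to 1.03) and 1.03 for Cct2 (95% interval 0.959 to 1.10). All 8 SEs lay below 0.096, the median SE of the 1986 genes with base means from 1000 to 10000, whose median log2 fold change was -0.13. The median of the CCT genes was -0.10.

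Per kb of exon, levels were close for 5 of the CCT genes. In the GFP group these 5 lay between 516 (Cct4 and Cct2) and 554 (Cct6a) normalized counts per kb. Tcp1 lay at 674, Cct5 at 1052 and Cct8 at 1259. Before division by exon length, the implied GFP means of the 5 ran from 1320 (Cct2) to 3512 (Cct7) normalized counts. Their exon lengths ran from 2557 (Cct2) to 6778 bases (Cct7). These lengths are unions of all annotated exons, which overstate genes with many isoforms. The part of exon length in the closeness was not tested. In the dnMKL1 group the same 5 lay between 478 (Cct6a) and 529 (Cct2), and the order of the upper 3 did not change.

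Of the 19 genes not called, 18 had 95% intervals within 0.5 on the log2 scale in either direction. These were Hspa4, Hspa8, Hsp90ab1, Hspb1, Hspb2, Cryab, Dnajb2, Dnajb4, Dnajb6, Bag3, Stip1, St13, Cct2, Cct3, Cct4, Cct5, Cct7 and Cct8. Hsf2 was the exception. Of the 14 genes called lower, 10 had falls smaller than 0.5 on the log2 scale.

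**Figure D3:**
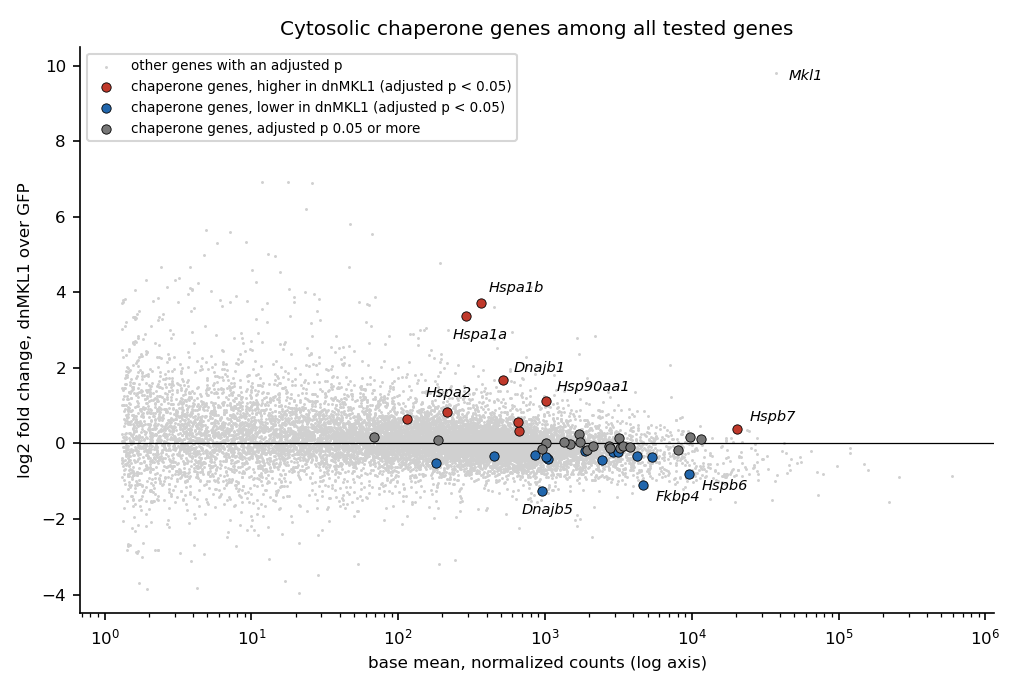
Log2 fold change against base mean (log axis) for all 14056 tested genes in grey, with the 42 chaperone genes coloured by call and the larger changes named. Hspa1a and Hspa1b lie among the larger rises at base means of 287 and 365, Hspb7 lies above 0 where most abundant genes lie below it, and Mkl1 is the point at the top.

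Heat shock elements were searched in RefSeq promoter windows (GRCm38.p6) that reach from 250 bases before to 50 after a start site. Of the 42 genes, 34 matched 47 windows. Neighbouring units can face each other (GAANNTTC) or face away (TTCNNGAA), and each form reads the same on both strands. Longer elements contain both. Only exact units at this spacing were matched, so an element with an altered unit would be missed or appear shorter. At least 1 form was present in 19 of the 47 windows, belonging to 17 genes, and in 15.1% of all 32851 windows. GAANNTTC occurred in 16 windows of 14 members and in 7.86% of all windows, and TTCNNGAA in 8 windows of 6 members and in 8.52% of all.

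The element was found in genes of every call. Among genes with a window, at least 1 form was present in 4 of 8 called higher, 7 of 13 called lower and 6 of 13 not called. The genes called higher with a match were Hspa1a, Hspa1b, Hsph1 and Dnaja1. In Hspa1a and Hspa1b the match began 104 bases before the start site, and in Dnaja1 it began 124 bases before. Dnajb1 had no exact match in either of its windows. A run of 3 units, GAANNTTCNNGAA or its reverse complement TTCNNGAANNTTC, was present in Hsph1, Chordc1 and Dnajb6 and in 0.603% of all windows. The 10-base CArG box, to which serum response factor binds, was present in 0 of the 47 windows and in 1.63% of all windows.

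**Figure D4:**
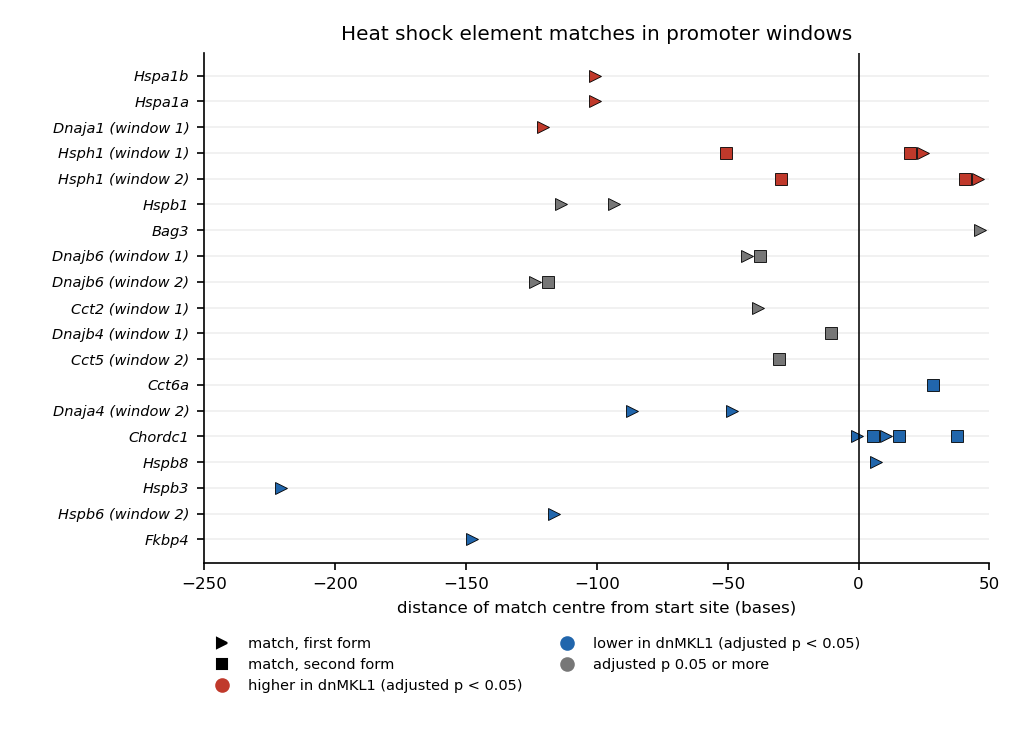
Positions of heat shock element matches relative to the start site in promoter windows of 17 of the 42 genes, from the largest rise at the top to the largest fall at the bottom, where windows of genes with several start sites are numbered by position. Matches of genes called higher begin between 124 bases before (Dnaja1) and 42 after the start site (Hsph1). Those of genes called lower begin between 224 before (Hspb3) and 34 after (Chordc1).

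Other chaperone genes were compared as a list of 50 further cytosolic genes, chosen by family, with earlier results of these data known. Of these, 45 had an adjusted p-value, and 5 were called higher and 17 lower, with a median log2 fold change of -0.17, against 16.6% higher and 17.4% lower among all tested genes. Tomm34, a co-chaperone of HSP70 and HSP90 in mitochondrial import, was called higher, from an implied mean of 377 to 604 normalized counts. Unc45b, the muscle co-chaperone that folds myosin with HSP90, was called lower, from 7384 to 5491, and Cdc37l1 from 1664 to 1106. Dnajc5, the next most abundant after Unc45b, was not called, at 2390 and 2473 normalized counts. Under total-count scaling 16 of the list were higher and 2 lower, against 40.4% and 6.6% of all tested genes.

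Chaperones of the organelles are given for comparison as 10 genes, of which 1 was called higher and 7 lower, with a median log2 fold change of -0.36, against 16.6% higher and 17.4% lower among all tested genes. Hspa9, the mitochondrial HSP70, went from an implied mean of 16013 to 8714 normalized counts, Dnaja3, its J-protein, from 4725 to 2553, and Hspd1, the mitochondrial chaperonin, from 5401 to 3119. These 3 stayed lower under total-count scaling, where the list had 2 genes higher and 3 lower, against 40.4% and 6.6% of all tested genes. Hspa5, the HSP70 of the endoplasmic reticulum, went from 13583 to 10617 and was not called under that scaling. Dnajb11, a J-protein of the same compartment, was the gene called higher, from 919 to 1294, and is named after its values were seen. No difference between these genes and the cytosolic ones was tested.

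Some of the genes that cell isolation is known to induce were called higher, as Hspa1a and Hspa1b were. Of 22 immediate early and stress genes with a row, 10 were called higher, 0 were called lower and 12 were not called, against 16.6% higher and 17.4% lower among all tested genes, with a median log2 fold change of 0.57 and summed implied means of 21462 and 29554 normalized counts. Klf4 went from 108 to 214 normalized counts, Jund from 674 to 986 and Nfkbia from 330 to 499.6, while Jun went from 2897 to 4944. Dusp1, the second most abundant of the list, was not called, at 3463 and 4039. The median SE of the list was 0.24, against 0.16 for all tested genes, so moderate changes could go uncalled. Under total-count scaling 14 were higher and 0 lower, against 40.4% and 6.6% of all tested genes. Hearts of both groups were digested and sorted, per the labels' protocols, and the part of cell isolation in the chaperone values was not tested.

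Depth and cell makeup can bear on such values, and the part of depth was not tested. Library totals estimated through recovered size factors ran from 8803005 to 17123500 counts in the GFP group and from 8835151 to 17228537 in the dnMKL1 group. All 12 cardiomyocyte markers were present at base means of 10438 or more. Of these 8 were called lower and 0 higher, with log2 fold changes from -1.55 (Actc1) to -0.11 (Mybpc3). Their summed implied means were 1757504 and 1002931 normalized counts. Of the 12 endothelial markers 0 were called (sums of 4373 and 4445). Their median SE was 0.32, against 0.16 for all tested genes, so moderate changes could go uncalled. Of the 12 fibroblast markers 5 were called higher (5228 and 8877). Of the 9 mural markers 3 were called higher and 1, Acta2, lower (18254 and 15947, or 7800 and 10949 without Acta2). Among all tested genes 16.6% were called higher and 17.4% lower. Of 10 macrophage markers with a row 1 was called higher (175 and 154). Of the 6 erythroid markers 4 had a row and 2 a fold change, with Hba-a1 and Hba-a2 listed at 0. The sums of 8.09 and 8.56 therefore rest on 2 genes, and the list says little about erythroid RNA. The part of other cell types in the chaperone values was not tested. In bulk libraries fewer cells of a type and less RNA per cell, of the markers alone or of all genes, cannot be told apart.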

How the data were processed

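Alignment by the authors used STAR, and counting used featureCounts, per the labels; the submitters' processing notes name versions 2.5.3a (STAR) and 1.5.2 (Subread) and the build mm10. The authors' base mean is a signal, the average of size-factor-scaled counts over 10 libraries. Fold changes and SEs were deposited as log2 values. As deposited, the Wald statistic (a score) matched the ratio of these (largest gap 1.1e-05). The deposited adjusted p-values were recomputed by the Benjamini-Hochberg method over 14056 genes (largest gap 1.4e-07). The authors' column names, per the file headers, are those of a DESeq2 results table.

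Group means were computed from base mean and fold change for groups of equal size, and intervals as the normal 95% interval. Genes with a single read in all gave each library's size factor, without its replicate number. Intervals rest on the authors' model, and reads carry no molecular identifiers. Exon lengths and positions came from GENCODE M21 and promoters from RefSeq (GRCm38.p6). Of the 42 genes 8 had no promoter window. Coding sequences were aligned with Biopython 1.88. The scripts (Python 3.11.15) were tested on simulated data.

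The members and all lists were chosen with earlier results of these data known. Values are given in full for Hspa1a, Hspa1b and each called member, members with intervals within 0.5 are named, and from the other lists the 3 genes with the smallest p-values and the 2 with the largest base mean could be named. The table holds no counts, so no count test was run. Alternatives were adjusted p thresholds of 0.01 and 0.1, adjustment over every p-value, base means of at least 10 and 100, a minimum log2 fold change of 0.5, total-count scaling, median-centring, and, added after seeing the data, leaving out Hspa1a and Hspa1b.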

Additional observations from a re-analysis of the deposited data

How the results depend on the processing

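Total-count scaling changed most. It gave 24 genes higher and 3 lower where the authors' scaling gave 9 and 14. It also took the median log2 fold change of the 42 genes from -0.07 to 0.22, and that of all tested genes from 0.02 to 0.31. By the constant of 0.29 that it adds, it also turned 13 single genes positive: Hspa4 (0.23), Hspa8 (0.10), Hspb2 (0.28), Dnaja4 (0.063), Stip1 (0.12), St13 (0.15), Tcp1 (0.070), Cct3 (0.17), Cct4 (0.22), Cct5 (0.16), Cct6a (0.076), Cct7 (0.21) and Cct8 (0.21). Which scaling is closer to RNA per cell was not tested. With a log2 fold change of 0.5 or more in size required, 4 genes were lower, since fewer can pass. Under the other alternatives the counts ran from 7 to 10 genes higher and from 13 to 16 lower. A threshold of 0.01 dropped 2 calls (Hspa1l and Hspb8), and one of 0.1 added 3 (Hspa8, Hspb1 and Stip1). No paired analysis was possible because the table holds no values per library, and for the same reason no library could be left out. Whether 1 library decides a value, above all for Hspa1a and Hspa1b with their large SEs, is therefore unknown.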
